A study of Mus musculus with 16 samples.

Results

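The liver X receptors (LXR) and the proteins that export, store and move sterols in a cell were read in mouse p53-/-; Myc hepatoblasts that had received sorafenib or its vehicle. The 8 genes are Nr1h2 and Nr1h3, which encode the receptors LXRβ and LXRα, the exporters Abca1 and Abcg1, the ubiquitin ligase gene Mylip, the esterification enzyme gene Soat1, and the lysosomal genes Npc1 and Npc2. They were chosen by name from what their proteins are known to do, and all 8 were among the 40840 genes counted. All 8 passed the filter of at least 10 counts in total over the 16 libraries, which left 20444 genes.

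The cells are 1 line that lacks the tumor suppressor p53 and carries the oncogene Myc, labelled as hepatocellular carcinoma by cell type and as hepatoblasts by title. Sorafenib is a kinase inhibitor given to patients with that cancer. The 4 groups were cells with DMSO for 48 hours (DMSO_48h), sorafenib at 8.5 µM for 48 hours (Sorafenib_48h), DMSO for 7 days (DMSO_7d) and sorafenib at 8.5 µM for 7 days (Sorafenib_7d), each with 4 replicates and all of the same genotype. The sources used here do not say whether replicates came from separate cultures, so p-values measure the spread between these samples, which may be technical.

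LXRs are nuclear receptors that bind oxysterols, pair with retinoid X receptors and switch on genes for sterol export when cell sterol is high. Abca1 and Abcg1 pass cholesterol to lipoprotein particles outside the cell, and Mylip marks lipoprotein receptors for degradation. SREBP2 acts on the opposite side, switching on sterol synthesis and uptake when sterol is low, while Npc2 and Npc1 carry cholesterol out of the lysosome and Soat1 stores it as ester.

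Libraries held 16586254 to 30828427 counts, with a median of 26360677. A count of 3 in a library, taken as the floor below which a level cannot be told from stray reads, was worth 2.44 to 4.54 normalized counts; this covers counting error only. Normalized counts are counts divided by the library's effective size from edgeR's TMM method, on the scale of an average library. In these bulk libraries, fewer cells of a type and less RNA per cell cannot be told apart.

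Sorafenib_48h replicate 2 stood apart in the SD of log2 ratios to its replicates, at 0.33 to 0.34 beside 0.11 to 0.16 in other pairs. By chi-square per gene, DMSO_7d replicate 4 also lay far from its replicates, at 53.1 to 71.6. The rest of that group lay at 1.94 to 3.2. Pairs with Sorafenib_48h replicate 2 lay at 32.6 to 38.1, and those within DMSO_48h at 5.09 to 42.7. With 10368 genes in genome order, the counts of Sorafenib_48h replicate 2 were lower from chromosome 15 onward, at 0.604 times the level before that place relative to the median of the other replicates, a log2 step of −0.73. In the other libraries the steps reached at most 0.0914 on the log2 scale. Genes after the place took 13.9% of this library's counts, against 20.1 to 20.9% in the others. Abcg1 and Npc1 are the 2 of the 8 genes that lie there, so values at 48 hours are given for Npc1 with and without this library. Of the others, Nr1h2, Abca1, Soat1 and Npc2 were highest in this library within Sorafenib_48h, while Nr1h3 and Mylip were not. Without it the log2 fold changes at 48 hours were −0.29 for Nr1h2, −0.26 for Abca1, 0.17 for Soat1 and −0.13 for Npc2. With it they were −0.25, −0.21, 0.20 and −0.11. The cause of the step was not tested.

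The labelled cell type was checked against marker genes. Of 10 hepatoblast and hepatocyte markers, 5 averaged 100 normalized counts or more. Hnf4a had 0 counts in all libraries, Alb had at most 1 count and Afp at most 14 in any library. Dlk1 was the most abundant of them, and the summed level of the list was 33150 ± 837 normalized counts (SD, n = 4) in DMSO_48h, 12200 ± 925 in Sorafenib_48h, 18170 ± 806 in DMSO_7d and 6230 ± 87.2 in Sorafenib_7d. Most of that sum is Dlk1, at 32230 ± 841, 10440 ± 847, 16770 ± 807 and 4020 ± 84.9. Of the 8 markers tested, 2 were higher and 4 lower with sorafenib at 48 hours and 3 higher and 5 lower at 7 days, with log2 fold changes of 1.77 and 0.84 for Foxa2 and 1.64 and 1.37 for Sox9. Of 7 fibroblast and stellate cell markers, 5 averaged 100 or more. Led on average by Col1a1, they summed to 50600 ± 1310, 150800 ± 9520, 72120 ± 984 and 117400 ± 2250 in the same order, with Lrat at 0. The rise lay in Col1a1 and Acta2, the latter at 4683 ± 179, 65480 ± 11900, 24190 ± 1390 and 63560 ± 1410. Of 6 tested, 4 were higher and 1 lower with sorafenib at 48 hours, but 3 higher and 3 lower at 7 days, when Dcn changed by −2.30 on the log2 scale. Of 8 macrophage markers, 0 reached that mean; led by Cd68, they summed to 116.5 ± 5.68, 90.78 ± 9.32, 162.5 ± 15.1 and 101.9 ± 8.9, with Adgre1 and Clec4f at 0 in all libraries. Of 4 tested, 0 were higher and 1 lower with sorafenib at each time. Of 6 endothelial markers, 0 reached that mean, 0 were at 0 in all libraries, and the sum, led by Kdr, was 73.87 ± 18.1, 137.4 ± 15.8, 53.79 ± 12.7 and 222.3 ± 12. Of 5 tested, 2 were higher (1 without Sorafenib_48h replicate 2) and 1 lower at 48 hours and 2 higher and 1 lower at 7 days, and Kdr rose by 1.32 and 2.65 on the log2 scale. Of all tested genes, 26.9% were higher and 27.7% lower with sorafenib at 48 hours, and 28.9% and 27.9% at 7 days. The part of these shifts in the results for the 8 genes was not tested.

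Promoter sequences from RefSeq, in its table of build GRCm38.p6, were taken for 6 of the 8 genes, and not for Npc1 or Abcg1. Each was then found once, letter for letter, in the genome GRCm39, whose coordinates are given. Abca1 and Mylip are shown because they are the 2 whose window held any of the letters searched. The 250 bases before the start are in lower case with CACGTG and TATAAA in capitals.
Abca1, chr4:53159896-53160145, minus strand: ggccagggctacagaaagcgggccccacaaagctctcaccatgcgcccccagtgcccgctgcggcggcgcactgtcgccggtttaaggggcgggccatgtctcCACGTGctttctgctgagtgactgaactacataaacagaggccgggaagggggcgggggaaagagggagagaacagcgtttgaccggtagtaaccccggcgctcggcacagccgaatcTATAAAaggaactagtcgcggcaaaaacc
Mylip, chr13:45542968-45543217, plus strand: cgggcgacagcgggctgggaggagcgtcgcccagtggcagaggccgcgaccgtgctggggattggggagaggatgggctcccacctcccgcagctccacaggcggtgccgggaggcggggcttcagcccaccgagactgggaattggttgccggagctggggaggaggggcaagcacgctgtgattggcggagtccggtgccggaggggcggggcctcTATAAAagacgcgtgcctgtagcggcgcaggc
The letters searched on both strands were AGGTCA, the half-site of many nuclear receptors, a pair of these 4 bases apart in direct repeat as LXR is known to bind, CACGTG, TCACNCCAC, TTGCATCA and TATAAA. Among 32851 promoter windows of this length, AGGTCA was present in 14.0%, the spaced pair in 0.0152%, CACGTG in 6.02%, TCACNCCAC in 1.05%, TTGCATCA in 0.792% and TATAAA in 12.4%. Abca1 held 1 CACGTG and 1 TATAAA, and Mylip held 1 TATAAA. Neither held AGGTCA or the spaced pair in these exact letters. Sites that differ from the letters searched, receptor sites among them, were not looked for in any window. The other 4 genes with a window held none of the letters searched, and no match says only that these letters are absent from this window. No window of Npc1 or Abcg1 was searched, so nothing is said here of their promoters.

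After 48 hours, 2 of 8 were higher with sorafenib, beside 26.9% of all tested genes, and 2 of 8 were lower, beside 27.7%, by edgeR's quasi-likelihood test at a Benjamini-Hochberg adjusted p under 0.05. After 7 days, 1 of 8 was higher, beside 28.9% of all genes, and 2 of 8 were lower, beside 27.9%. The response at 7 days was higher than that at 48 hours for 2 of 8, beside 15.5%, and lower for 2 of 8, beside 21.3%. From 48 hours to 7 days, 1 of 8 was higher under DMSO, beside 23.9%, and 4 of 8 were lower, beside 25.5%. Under sorafenib the counts over time were 2 higher, beside 17.5%, and 3 lower, beside 22.3%. The median log2 fold change of the 8 genes was −0.08 at 48 hours and 0.04 at 7 days, beside −0.05 and 0.02 for all tested genes. Without Sorafenib_48h replicate 2, 2 of 8 were higher and 3 lower at 48 hours, as Abca1 then passed.

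**Figure D1:**
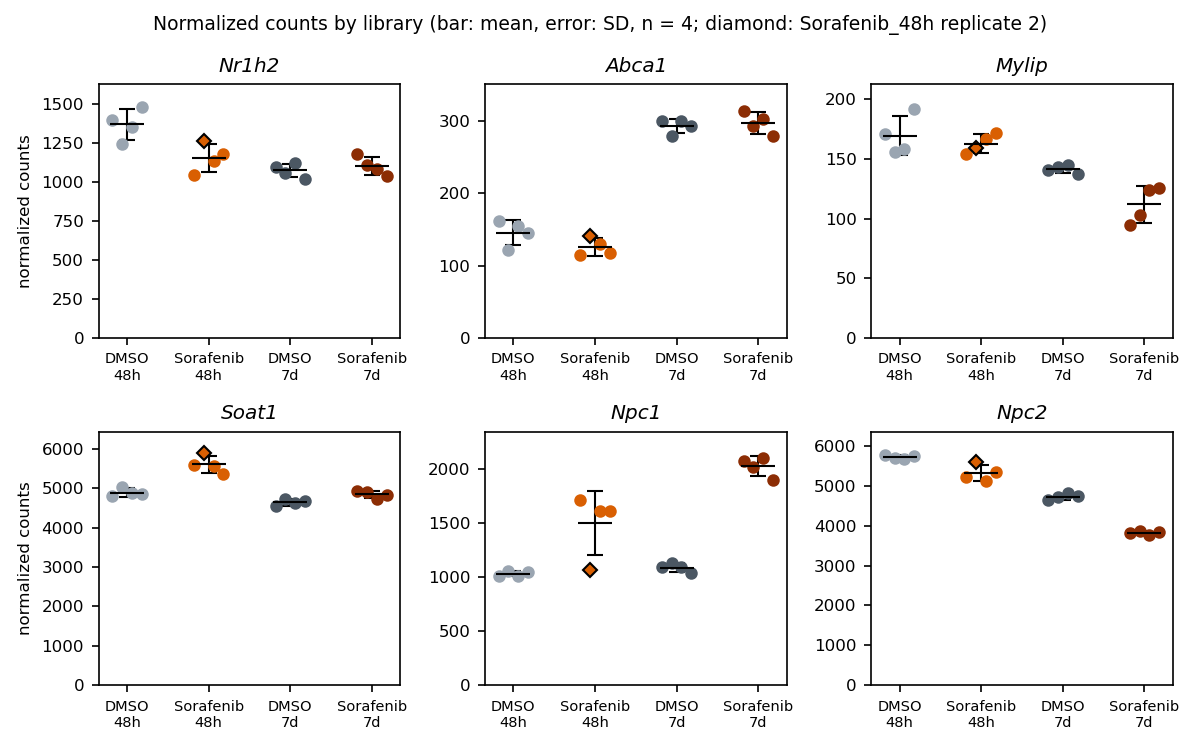
Normalized counts of the 6 genes other than Nr1h3 and Abcg1 in each of 16 libraries, by group, with mean and SD (n = 4). Abca1 separates the time points, at 115.1 to 161.3 after 48 hours and 279.3 to 315.0 after 7 days, while Npc1 is higher with sorafenib than with DMSO at each time.

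Among the receptors, Nr1h2 (LXRβ) carried nearly all of the message. Its level per kilobase of exon was 511 to 652 normalized counts over the 4 group means, beside 2.23 to 4.36 for Nr1h3 (LXRα). Nr1h3 had 0 to 13 counts in a library, near the floor of 3 counts.

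Nr1h2 had 1400, 1246, 1350 and 1481 normalized counts in DMSO_48h and 1041, 1261, 1135 and 1177 in Sorafenib_48h. Sorafenib libraries were mostly lower, but the groups overlapped through replicate 2 of each. The log2 fold change was −0.25 ± 0.06 (SE, n = 4), with an edgeR adjusted p of 0.00136. Without Sorafenib_48h replicate 2 it was −0.29 (edgeR adjusted p = 9.01e-07). After 7 days the values were 1097, 1060, 1118 and 1017 with DMSO and 1178, 1110, 1081 and 1038 with sorafenib, which overlapped. That gave a log2 fold change of 0.04 ± 0.06, with an edgeR adjusted p of 0.623. The responses differed between the times by 0.29 ± 0.08 on the log2 scale (edgeR adjusted p = 0.0108). From 48 hours to 7 days Nr1h2 changed by −0.35 ± 0.06 under DMSO, with no overlap (edgeR adjusted p = 4.17e-05). Under sorafenib the change of −0.07 ± 0.06 did not pass, and the groups overlapped (edgeR adjusted p = 0.422). In order, Nr1h2 was highest in DMSO_48h, then Sorafenib_48h, Sorafenib_7d and DMSO_7d, and the ranges of each pair of neighbours overlapped.

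Nr1h3 counts were 4, 8, 7 and 5 in DMSO_48h, 0, 4, 12 and 6 in Sorafenib_48h, 7, 6, 4 and 3 in DMSO_7d and 9, 7, 13 and 10 in Sorafenib_7d. The groups overlapped at both times. Neither difference passed. The log2 fold change was 0.23 ± 0.52 (SE, n = 4) at 48 hours and 0.96 ± 0.48 at 7 days, with edgeR adjusted p-values of 0.746 and 0.0983. Over 14 settings the value at 48 hours ran from −0.355 to 0.55, so its direction was not stable. At 7 days the difference passed in 1 of 14 settings, with only the libraries compared (edgeR adjusted p = 0.0462, range 0.0462 to 0.211). Because 1 library had 0 counts, the ratio of Nr1h3 to Nr1h2 was taken with 0.5 added to both counts. Sorafenib changed its log2 value by −0.13 at 48 hours and 0.91 at 7 days. Neither passed an exact two-sided permutation test (p = 0.943 and 0.0571, adjusted over 4 tests 0.943 and 0.0762, n = 4). The change at 48 hours was 0.72 without Sorafenib_48h replicate 1, which had 0 counts. It was 0.03 without DMSO_48h replicate 2 and 0.01 without DMSO_48h replicate 3. It lay further below 0 without any 1 of Sorafenib_48h replicates 2, 3 and 4 or of DMSO_48h replicates 1 and 4.

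Of the exporters, Abca1 was present at a low level and Abcg1 was not detected above the floor. Abcg1 had 0 to 3 counts in every library, and 0 in all 4 libraries of Sorafenib_48h, so no fold change is given. Abca1, with a mean of 12.2 to 29.0 normalized counts per kilobase over the groups, differed mainly between the time points.

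Abca1 had 161.3, 121.5, 155.2 and 145.2 normalized counts in DMSO_48h and 300.6, 279.3, 300.4 and 293.1 in DMSO_7d. Every library at 7 days was above every library at 48 hours, and the log2 fold change over time was 1.01 ± 0.08 (SE, n = 4; edgeR adjusted p = 2.02e-09). Under sorafenib the values were 115.1, 140.6, 130.4 and 117.0 at 48 hours and 315.0, 294.0, 302.6 and 279.4 at 7 days. These groups were also apart, at a log2 fold change of 1.24 ± 0.09 with an edgeR adjusted p of 4.83e-10. Between sorafenib and DMSO the libraries overlapped at both times. The log2 fold change was −0.21 ± 0.09 at 48 hours (edgeR adjusted p = 0.0669; −0.26 and 0.0399 without Sorafenib_48h replicate 2) and 0.02 ± 0.07 at 7 days (edgeR adjusted p = 0.827). The test at 48 hours passed in 5 of 15 settings run, the others being without DMSO_48h replicate 2 (−0.29, edgeR adjusted p = 0.0082), without Sorafenib_48h replicate 3 (−0.26, 0.0452), with DESeq2's size factors (−0.23, 0.0468) and with at least 10 counts in every sample (−0.25, 0.0204). Over all settings the adjusted p ran from 0.0082 to 0.18. The 95% interval at 7 days ran from −0.13 to 0.18. The difference between the responses was 0.23 ± 0.12 with an edgeR adjusted p of 0.145, over a range of 0.0297 to 0.23. It passed in 2 of 22 settings, without DMSO_48h replicate 2 (0.31, edgeR adjusted p = 0.0297) and with at least 10 counts in every sample (0.30, 0.0396). Abca1 was highest in Sorafenib_7d, then DMSO_7d, DMSO_48h and Sorafenib_48h, with overlap within each time point and none between them.

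**Figure D2:**
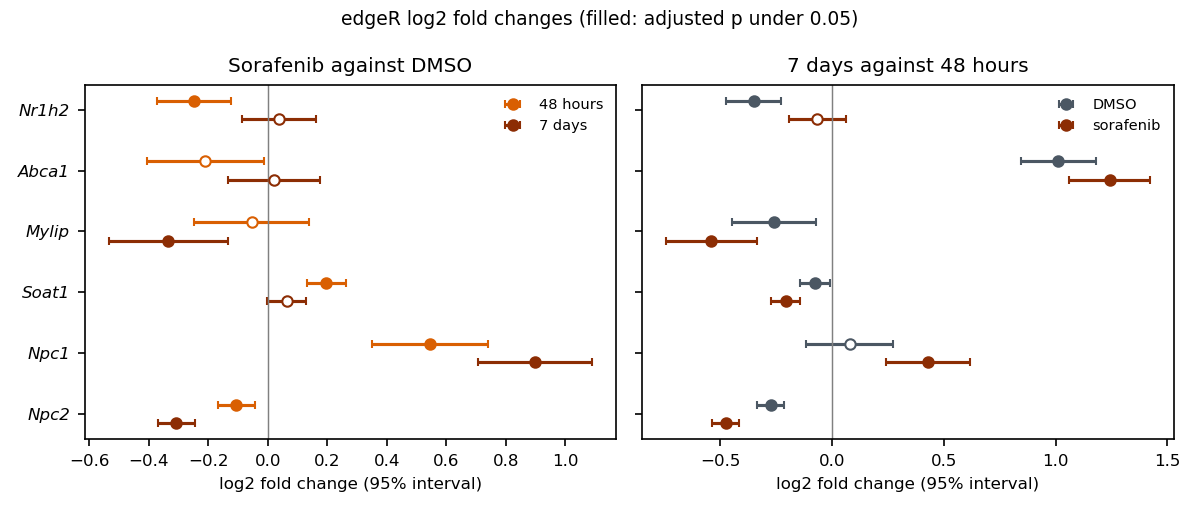
edgeR log2 fold changes with 95% intervals for sorafenib against DMSO and for 7 days against 48 hours, filled where the adjusted p was under 0.05. Npc1 lies to the right at both times under sorafenib, and Abca1 is higher at 7 days than at 48 hours in both arms, by 1.01 and 1.24.

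Mylip, the ligase that removes lipoprotein receptors, was lower at 7 days than at 48 hours. It had 171.1, 156.2, 158.2 and 191.8 normalized counts in DMSO_48h and 154.3, 158.8, 166.6 and 171.5 in Sorafenib_48h, which overlapped. After 7 days it had 140.6, 143.1, 145.0 and 137.3 with DMSO and 94.49, 103.1, 124.2 and 125.9 with sorafenib, and all 4 sorafenib libraries were lower. Sorafenib against DMSO gave a log2 fold change of −0.05 ± 0.09 (SE, n = 4; edgeR adjusted p = 0.653) at 48 hours and −0.33 ± 0.10 (edgeR adjusted p = 0.00532) at 7 days. The difference between these responses did not pass, at −0.28 ± 0.13 with an edgeR adjusted p of 0.11. From 48 hours to 7 days its log2 fold change was −0.26 under DMSO and −0.54 under sorafenib. Mylip was highest in DMSO_48h, then Sorafenib_48h, DMSO_7d and Sorafenib_7d, and only the first 2 overlapped.

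Soat1, which esterifies cholesterol for storage, was abundant and moved little. It had 4799, 5038, 4872 and 4855 normalized counts in DMSO_48h and 5600, 5891, 5565 and 5364 in Sorafenib_48h, and the groups did not overlap. Sorafenib raised it by 0.20 ± 0.03 on the log2 scale (SE, n = 4), with an edgeR adjusted p of 1.97e-05. After 7 days it had 4538, 4718, 4618 and 4677 with DMSO and 4936, 4905, 4731 and 4830 with sorafenib. These did not overlap either, yet the log2 fold change of 0.06 ± 0.03 did not pass (edgeR adjusted p = 0.0876). The responses differed by −0.13 ± 0.04 (edgeR adjusted p = 0.0243), a call that was lost without any 1 of 7 libraries, at adjusted p-values of 0.0503 to 0.101. Those libraries were DMSO_48h replicates 1, 3 and 4, Sorafenib_48h replicates 1 and 3, DMSO_7d replicate 2 and Sorafenib_7d replicate 3, with differences of −0.12 to −0.10. It was also lost with at least 10 counts in every sample, where the difference was −0.07 (edgeR adjusted p = 0.183, range 0.00909 to 0.183). Soat1 was highest in Sorafenib_48h, then DMSO_48h, Sorafenib_7d and DMSO_7d, and the middle pair overlapped.

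The lysosomal pair moved in opposite directions. Npc1, the membrane protein that takes cholesterol from Npc2, had 1010, 1052, 1012 and 1050 normalized counts in DMSO_48h and 1710, 1065, 1609 and 1617 in Sorafenib_48h. The value of 1065 is that of the library with lowered counts, and it was still above all DMSO_48h libraries. After 7 days Npc1 had 1090, 1132, 1094 and 1037 with DMSO and 2073, 2024, 2108 and 1899 with sorafenib, far apart. The log2 fold change was 0.55 ± 0.09 (SE, n = 4; edgeR adjusted p = 4.21e-05) at 48 hours, or 0.67 ± 0.04 without that library (edgeR adjusted p = 1.85e-20), and 0.90 ± 0.09 (edgeR adjusted p = 4.25e-08) at 7 days. The responses differed by 0.35 ± 0.13 (edgeR adjusted p = 0.0404). Without Sorafenib_48h replicate 2 the difference was 0.22 ± 0.05 with an edgeR adjusted p of 0.000413. The call was lost without any 1 of 8 other libraries, at differences of 0.33 to 0.37 and adjusted p-values of 0.0565 to 0.0757. Those were DMSO_48h replicates 2 and 4, DMSO_7d replicates 1, 3 and 4 and Sorafenib_7d replicates 1, 2 and 3. Npc1 was highest in Sorafenib_7d, then Sorafenib_48h, DMSO_7d and DMSO_48h; the middle pair overlapped only through the library with lowered counts, and the DMSO groups overlapped. Exons of Npc1 share 963 bases with Gm15956 and Rmc1 on the other strand, so its counts are uncertain to that extent.

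Npc2, the soluble protein that hands cholesterol on, had 5786, 5694, 5672 and 5743 normalized counts in DMSO_48h and 5234, 5592, 5127 and 5340 in Sorafenib_48h. All sorafenib libraries were lower, and the log2 fold change was −0.11 ± 0.03 (SE, n = 4; edgeR adjusted p = 0.00454). That call was lost in 1 of 15 settings, with no filter (−0.07, edgeR adjusted p = 0.0658, range 4e-06 to 0.0658). After 7 days the values were 4644, 4715, 4822 and 4736 with DMSO and 3820, 3867, 3776 and 3833 with sorafenib, with no overlap. This was a log2 fold change of −0.31 ± 0.03, with an edgeR adjusted p of 1.78e-08. The responses differed by −0.20 ± 0.04 (edgeR adjusted p = 0.00059). Npc2 was highest in DMSO_48h, then Sorafenib_48h, DMSO_7d and Sorafenib_7d, and no neighbours overlapped. Its exons share 275 bases with Isca2 on the other strand.

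The count of Npc1 relative to Npc2 within a library needs no scaling between libraries. It was 0.175, 0.185, 0.178 and 0.183 in DMSO_48h and 0.327, 0.190, 0.314 and 0.303 in Sorafenib_48h. After 7 days it was 0.235, 0.240, 0.227 and 0.219 with DMSO and 0.543, 0.523, 0.558 and 0.495 with sorafenib. All 4 sorafenib libraries were above all 4 DMSO libraries at each time, by a mean of 0.62 (0.80 without Sorafenib_48h replicate 2) and 1.20 on the log2 scale. An exact two-sided permutation test gave p = 0.0286 for each (n = 4), the smallest that 4 against 4 allows, and 0.0571 after adjustment over the 4 ratio tests, which does not pass 0.05.

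**Figure D3:**
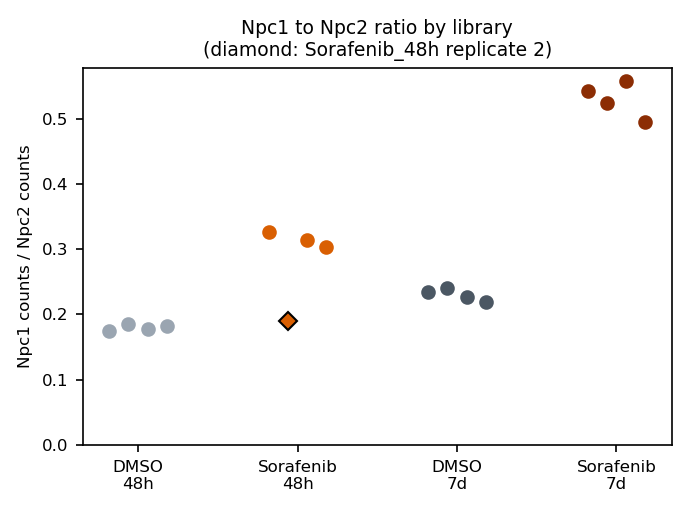
Counts of Npc1 divided by counts of Npc2 in each library, by group. DMSO libraries lie between 0.175 and 0.240, and sorafenib libraries reach 0.495 to 0.558 after 7 days.

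Per kilobase of exon, Npc2 was the most abundant of the 8 genes in each group mean, at 958 to 1430 normalized counts, followed by Soat1 at 554 to 670 or Nr1h2 at 511 to 652. Npc1 came next at 194 to 381, then Mylip at 36.5 to 55.2 and Abca1. The order of Soat1 and Nr1h2 was reversed in DMSO_48h, where Nr1h2 had 652 and Soat1 584.

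For each gene, the 3 genes most like it were taken by Pearson correlation of edgeR's log2 CPM over the 16 libraries, among 10646 genes that averaged 100 normalized counts or more. The values are descriptions, since libraries share groups and depth. Npc1 was most like Ergic1, Hdac7 and Slc29a1, with r of 0.986 to 0.988. Npc2 was most like Cep68, Tead2 and Pdgfc, with r of 0.988 to 0.993. Abca1 was most like Drg2, Rbbp6 and Ccdc137 (0.948 to 0.974), Soat1 like Cpne3, Ctsa and Fam172a (0.962 to 0.967), Nr1h2 like R3hdm4, Poc1a and Stk36 (0.924 to 0.952) and Mylip like Zfp513, Nfia and Gm52691 (0.928 to 0.953). Without Sorafenib_48h replicate 2, 0 of these 3 stayed for Npc1 and Soat1, 1 for Abca1 and Npc2, 2 for Nr1h2 and 3 for Mylip. Nr1h3 and Abcg1 had too few counts for such a comparison.

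The rest of the pathway was read from lists of genes by role. Their counts are to be read beside the shares of all tested genes, 26.9% higher and 27.7% lower at 48 hours and 28.9% and 27.9% at 7 days. Of the retinoid X receptors, corepressors and their deacetylase, 6 of 7 were tested, and 2 were higher and 3 lower at 48 hours, 2 higher and 2 lower at 7 days. The LXR partner Rxra fell from 2323 ± 119 to 1494 ± 47.4 normalized counts (SD, n = 4) at 48 hours, a log2 fold change of −0.64, and changed by −0.59 at 7 days. For Rxrb it was −0.80 at 48 hours, or −0.68 without the library with lowered counts, and −0.21 at 7 days. Of 13 other LXR target genes, 12 were tested, with 3 higher and 8 lower at 48 hours and 3 higher and 7 lower at 7 days. Their median log2 fold change was −0.80 and −1.16, beside −0.05 and 0.02 for all tested genes. These counts and medians include Abcg5, Abcg8, Apoc1 and Smpdl3a, whose group means were at most 14.01 normalized counts. Some of those means lay below the floor, so the size of the medians is uncertain. Abcg5 and Abcg8 were among the lower genes at both times, and Apoc1 at 48 hours. The other LXR target genes went both ways. Pltp, a phospholipid transfer protein, rose by 2.18 and 3.07 and the lipase Lpl by 1.55 and 1.38, while Apoe changed by −2.04 and −2.76 and the desaturase Scd1 by −0.69 (−0.54 without that library) and −1.42.

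Of the receptors that Mylip can mark, Vldlr rose from 836.5 ± 72.3 to 3352 ± 700 normalized counts (SD, n = 4) at 48 hours and from 501.4 ± 22.9 to 3092 ± 56.2 at 7 days, at log2 fold changes of 2.01 (2.15 without Sorafenib_48h replicate 2) and 2.63. Lrp8 rose by 1.36 and 0.70 on the log2 scale. Of 17 genes of intracellular sterol transfer, 11 were higher (12 without that library) and 5 lower at 48 hours and 10 higher and 4 lower at 7 days, with medians of 0.65 and 0.44, beside −0.05 and 0.02 for all tested genes. The shares of all tested genes were 26.9% higher and 27.7% lower at 48 hours and 28.9% and 27.9% at 7 days. Stard5 rose by 2.17 and 2.37 and Osbpl6 by 1.15 and 1.88, whereas Stard4 changed by −1.99 and −3.11.

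Of genes that SREBP2 switches on, Hmgcs1, an early enzyme of sterol synthesis, fell from 16010 ± 459 to 4958 ± 208 normalized counts (SD, n = 4) at 48 hours and from 15550 ± 546 to 2068 ± 98.0 at 7 days. On the log2 scale Idi1 changed by −1.48 and −2.50 and Sqle by −1.12 (−0.98 without the library with lowered counts) and −2.15. Beside the same shares of all genes, 26.9% and 27.7% at 48 hours and 28.9% and 27.9% at 7 days, 3 more lists were counted. Of 4 enzymes of sterol ester turnover other than Soat1, 3 were higher and 1 lower at both times, at log2 fold changes of 0.92 and 0.22 for Nceh1 and −1.57 and −1.61 for Lipe. The higher ones include Soat2, at 7.132 normalized counts with DMSO and 68.09 with sorafenib at 48 hours, and 3.64 and 121.6 at 7 days. Its log2 fold change was 3.235 (3.299 without Sorafenib_48h replicate 2) and 4.993. Of 6 other sterol export genes, 0 were higher and 3 lower at 48 hours and 0 higher and 1 lower at 7 days, and Scarb1 was lower at both times, at −0.97 at 7 days. Abcg4, among the lower at 48 hours, averaged at most 9.094 normalized counts in any group. Of 9 oxysterol and bile acid enzymes, 6 were tested, with 2 higher and 1 lower at 48 hours (2 lower without Sorafenib_48h replicate 2) and 3 higher and 2 lower at 7 days, and Cyp39a1 changed by −1.61 and −1.51. Hsd3b7 changed by −0.35 at 48 hours, which passed without that library (−0.36, edgeR adjusted p = 0.0344), and by 0.88 at 7 days. At low counts, Cyp27a1 rose by 3.04 and 4.07, while Ch25h did not pass at 48 hours and changed by −4.255 at 7 days.

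**Figure D4:**
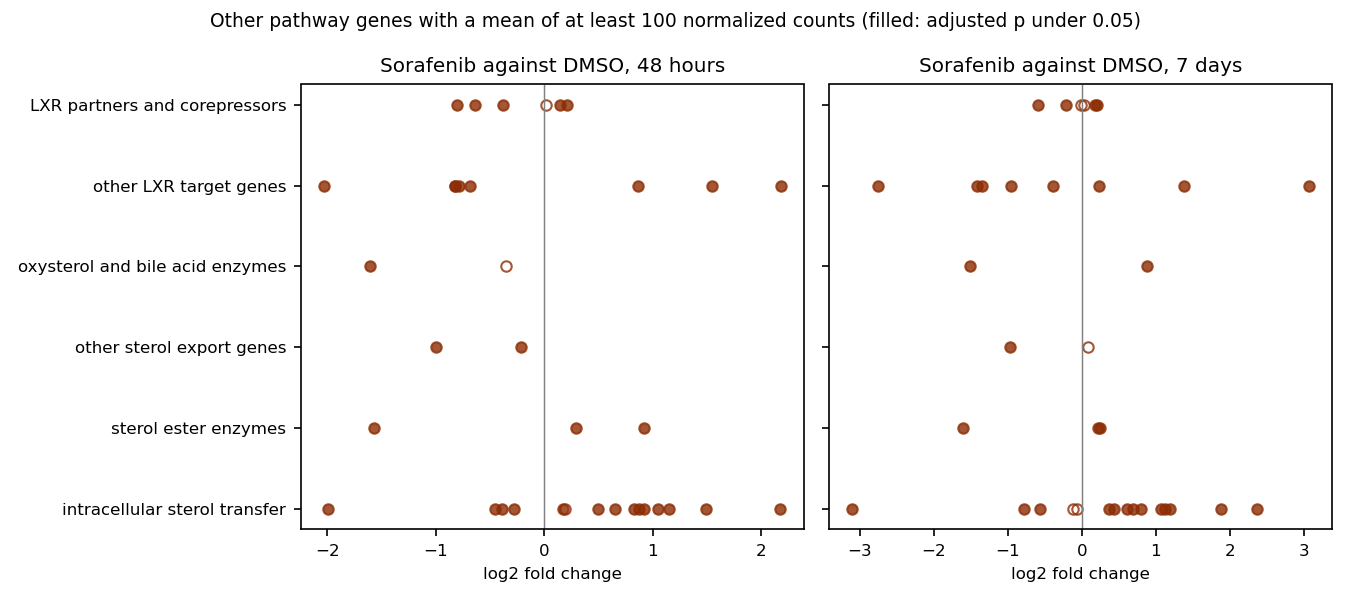
edgeR log2 fold changes of sorafenib against DMSO at each time for other pathway genes that averaged 100 normalized counts or more, by list, filled where the adjusted p was under 0.05. Other LXR target genes lie on both sides of 0.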

How the data were processed

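RNA of mouse p53-/-; Myc hepatoblasts was sequenced in 16 libraries, 4 in each of 4 groups. The authors made stranded mRNA libraries and deposited a count of reads per gene for 40840 genes, with no normalization; the submitters' processing notes name STAR 2.7.1a, featureCounts 2.0.6, DESeq2 1.40.2 and GRCm39, and the strand setting of the counting is not given in the sources used here. Total counts and the floor of 3 counts are given with the results.

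Tests used edgeR 4.0.16 under R 4.3.3 on genes with at least 10 counts in total (TMM, quasi-likelihood test, all 4 groups in 1 model), with Benjamini-Hochberg adjustment over 20444 genes and calls at an adjusted p under 0.05. Standard errors were taken from the fold change and the F statistic. Ratios were tested with scipy 1.17.1. The edgeR step was tested on simulated data. Levels per kilobase used the exons of the canonical transcript in GENCODE for GRCm39.

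Named genes were the 8 genes, up to 4 genes in each list with the largest absolute log2 fold change at either time among genes averaging 100 normalized counts or more, and the 3 genes most like each of the 8. Marker genes at 0 or near it or most abundant were named after their values were seen. So were list genes averaging less than 100 normalized counts and the genes that share exons with Npc1 and Npc2. The 8 genes and the lists were chosen with earlier results of these data known. The planned ratio of Nr1h3 to Nr1h2 without an added count could not be computed, as 1 library had 0 counts.

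Alternatives were DESeq2 1.42.0, its size factors, limma 3.58.1 voom with quality weights, no filter, at least 10 counts in every sample, only the libraries compared, the replicate number as a block, a threshold of 1 on the absolute log2 fold change, and each replicate left out. Counts of the lists without Sorafenib_48h replicate 2 were added after the data were seen. The authors' own comparisons were not used, and 1 result, with the counts of the 2 lists that hold it, is not reported here.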

Additional observations from a re-analysis of the deposited data

Results flagged for a closer look

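In Sorafenib_48h, replicate 2 lay far from the other 3 libraries for Npc1, at 1065 normalized counts beside 1609 to 1710. The same library lay far from the others in the log2 ratio of Npc1 to Npc2, at −2.39 beside −1.72 to −1.61. These were 2 of 40 groups of 4 libraries looked at, and chance marks about 1 in 20. Npc1 lies after the place where the counts of this library were lowered, and Npc2 does not.

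The response to sorafenib differed between 7 days and 48 hours for 4 of the 8 genes by edgeR's test of the difference, beside 36.8% of all tested genes. On the log2 scale, the response at 7 days less that at 48 hours was 0.29 for Nr1h2, −0.13 for Soat1, 0.35 for Npc1 and −0.20 for Npc2. For Npc1 it was 0.22 without Sorafenib_48h replicate 2. The call was lost in 9 of 22 settings for Npc1 and in 8 of 22 for Soat1, and in 0 of 22 for Nr1h2 and Npc2.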

How the results depend on the processing

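Over 24 member results, 408 values were recomputed; 377 stayed on the same side of the threshold (uncalled values of Nr1h3 at 48 hours and of Abcg1 and Abca1 at 7 days changed sign between settings), 18 no longer passed, 13 newly passed and 0 turned direction while called. For the 8 genes the calls for Nr1h2, Npc1 and Soat1 at 48 hours and Npc1, Npc2 and Mylip at 7 days held in each of the 15 settings in which they were run. Npc2 at 48 hours did not pass with no filter (−0.07, edgeR adjusted p = 0.0658, over a range of 4e-06 to 0.0658). The difference between responses did not pass for Soat1 with at least 10 counts in every sample (−0.07, edgeR adjusted p = 0.183, range 0.00909 to 0.183) or for Npc1 with no filter (0.33, edgeR adjusted p = 0.0699, range 0.000413 to 0.0757).

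Asking for an absolute log2 fold change of 1 or more left 3690 genes at 48 hours, 4202 at 7 days, 1965 for the difference, 2242 over time under DMSO and 1727 under sorafenib, and 0, 0, 0, 1 and 1 of the 8 genes, by its construction. With only the libraries compared, 5 of the 8 were called at 7 days in place of 3, beside 12639 genes in place of 11613 over the whole table, with Soat1 (0.06, edgeR adjusted p = 0.0212, range 0.00997 to 0.195) and Nr1h3 (0.96, edgeR adjusted p = 0.0462, range 0.0462 to 0.211) added. Soat1 at 7 days also passed with DESeq2, with voom and with either other filter. Leaving out 1 replicate gave 2 to 4 of the 8 for the difference between responses, with 2 without DMSO_48h replicate 4 and without Sorafenib_7d replicate 3. The ratio tests did not pass under any setting, and with 3 libraries against 4 they could not; the ratio of Nr1h3 to Nr1h2 at 48 hours ran from −0.60 to 0.72.

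With the replicate block, 10644, 11027 and 6987 genes were called at 48 hours, at 7 days and for the difference, and 9871 and 7809 over time, and the block changed no count of the 8 genes. Libraries that share a number had mean correlations of −0.009, 0.068, −0.109 and 0.013 of their deviations from group means, so the numbers were not taken as pairs.

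Counts near 3 limit Nr1h3 and Abcg1. The replicates come from 1 cell line and their origin is not stated, so the results say nothing about other lines or animals. Message was measured, not protein or sterol.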
